A study of Oryza sativa with 18 samples.

Results

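The long arms of rice chromosomes 2 and 4 were examined as a pair, because grasses inherited them as copies of a common ancestral segment. The regions were formed by merging the R-loop peaks of 17 libraries wherever they shared at least 1 bp, and those with a midpoint on chromosome 2 beyond 19 Mb or on chromosome 4 beyond 18 Mb were kept. This gave 9498 of 89277 regions (10.6%), with 4646 in 16.9 Mb of the chromosome 2 arm and 4852 in 17.5 Mb of the chromosome 4 arm. Each arm was taken to end at the last deposited peak. The first region inside the chromosome 2 arm (19000297 to 19001211, 13 libraries) followed one just outside it (18999200 to 18999483, 2 libraries), and on chromosome 4 the first inside (18001098 to 18001521, 11 libraries) followed 17997227 to 17997563 (8 libraries). Positions are as the authors' lists give them. The genome build was not named in the labels or file headers used here. Neither the duplication itself nor the genes of the arms could therefore be checked, and regions are named by position.

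R-loops are structures in which an RNA strand pairs with DNA and displaces the other DNA strand. They form during transcription and RNase H removes their RNA. Gene copies left by an old duplication often diverge in sequence and expression, and many are lost from one of the copies, so that paired segments need not keep the same landscape. In ISRH-seq the hybrid strand of sonicated DNA is replaced by biotinylated DNA, which is then captured and sequenced.

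All libraries came from wild-type seedlings. They comprised 2 libraries grown with 150 mM NaCl (titled salt), 2 titled CK(salt), 1 titled RNaseH, which did not enter the merging, and 13 titled by input DNA (1 at 100 ng, and 2 each at 250 ng, 500 ng, 1, 3, 5 and 8 µg). Both the salt and the CK(salt) libraries carry a treatment label of 3 days, so the titles were used to tell them apart. Input amounts of the salt, CK(salt) and RNaseH libraries, and whether replicates came from separate plants, are not stated, and p-values thus describe a spread between libraries that could be wholly technical. The 17 lists held 14845 to 70518 peaks, at a background coverage of 0.88 (100 ng) to 12.7 (8 µg replicate 2), which was read from the peak statistics and serves as the measure of depth.

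The arms carried nearly equal numbers of regions for their length, and more than the rest of the genome. There were 274 regions per Mb on the chromosome 2 arm and 277 on the chromosome 4 arm, against 236 elsewhere. In single libraries the chromosome 2 arm had between 42.9 (100 ng) and 216 (8 µg replicate 1) peaks per Mb, with a median of 146. The chromosome 4 arm had between 40.3 and 217 in the same libraries, with a median of 151. The rest of the genome ranged from 39.6 to 186, with a median of 128.

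Both arms were denser than the rest of the genome in 17 of 17 libraries. The excess was 15.3% for the chromosome 2 arm (mean log2 ratio 0.21 ± 0.060, SD, n = 17) and 14.4% for the chromosome 4 arm (0.19 ± 0.11). Both had an adjusted p of 5.33e-05 in two-sided sign-flip permutation tests over libraries. With the 14845 best-scored peaks of each list, the chromosome 4 value was 0.069 (adjusted permutation p = 0.00448), above 0 in 14 of 17 libraries, and the chromosome 2 value 0.16, above 0 in all 17. Within its own chromosome, the chromosome 2 arm was 1.11-fold and the chromosome 4 arm 1.61-fold denser than the remaining sequence, in all 17 libraries. With equal lists the chromosome 2 arm was the denser in 12 of 17 and the chromosome 4 arm in 17 of 17.

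Set against other chromosome ends, the excess was smaller. Against the mean of the last 10 Mb of the other 10 chromosomes, the last 10 Mb of chromosome 2 were 4.90% denser (mean log2 ratio 0.069 ± 0.048, SD, n = 17, adjusted sign-flip p = 5.33e-05, higher in 17 of 17 libraries). The last 10 Mb of chromosome 4 gave 0.012 ± 0.12 (permutation p = 0.679, higher in 8 of 17). The mean of the other chromosomes includes the 2 sparsest ends, those of chromosomes 11 and 12 (117 and 122 peaks per Mb). By mean density over libraries chromosome 2 (148.0) came after chromosomes 3, 5, 9 and 1. Ranked by this density among the 12 chromosomes, chromosome 2 held ranks 2 to 7 across libraries, whereas chromosome 4 ranged over ranks 1 to 11. Chromosome 4 ranked first in 1 µg replicate 2, 500 ng replicate 2 and both 250 ng libraries, and eleventh in the 100 ng library and both salt libraries. Its standing thus varied with the library far more than that of chromosome 2.

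Between the arms, no difference in peak density was detected. The chromosome 2 arm was denser in 11 of 17 libraries, with a mean log2 ratio of 0.011 ± 0.056 (SD, n = 17, adjusted sign-flip p = 0.422). The share of bases covered by peaks gave 0.025 ± 0.052 (adjusted permutation p = 0.126, higher in 12 of 17). Median spacing between neighbouring peaks gave -0.016 ± 0.052 (adjusted permutation p = 0.305, longer on the chromosome 2 arm in 7 of 17). Both arms came from the same library in each ratio, so depth and any batch were shared by the pair.

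Peaks of the chromosome 2 arm were slightly wider. Their median width ran from 268 bp (100 ng) to 532 bp (250 ng replicate 2), with a median over libraries of 417 bp, against 269 to 511 bp with a median of 414 bp on the chromosome 4 arm. The difference was 1.65% (mean log2 ratio 0.024 ± 0.019, SD, n = 17, adjusted sign-flip p = 0.00152, wider in 14 of 17 libraries). It was not past the threshold when every list was limited to its 14845 best-scored peaks (0.015, adjusted p = 0.0855), or in the 9 libraries left without the second or the first replicates (0.020 and 0.024, adjusted exact permutation p = 0.0625 and 0.109).

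**Figure D1:**
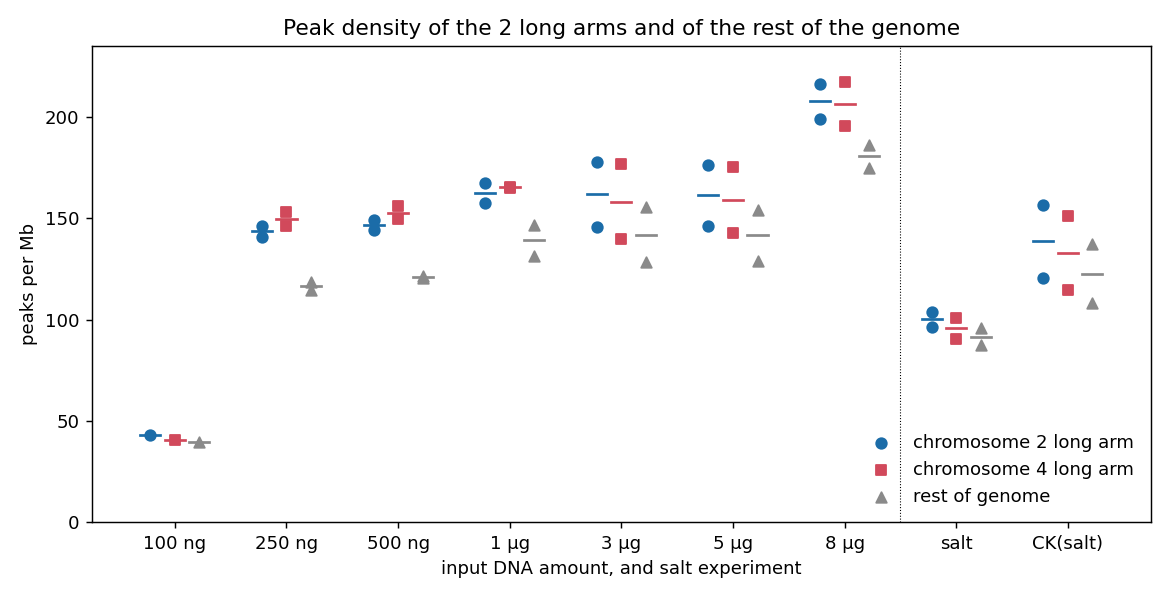
Peaks per Mb (y axis) on the chromosome 2 long arm (circles), the chromosome 4 long arm (squares) and the rest of the genome (triangles), by input amount and for the salt and CK(salt) libraries (x axis). Each point is 1 library and each bar a group mean. Both arms lie above the rest of the genome in every library, and the 8 µg libraries are the densest, with 216 and 199 peaks per Mb on the chromosome 2 arm.

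The direction of the density ratio differed between libraries. The chromosome 4 arm was the denser in 6 libraries. These were both 250 ng libraries (140.8 and 146.2 peaks per Mb on the chromosome 2 arm, 146.3 and 153.1 on the chromosome 4 arm), both 500 ng libraries (144.2 and 149.2, against 149.6 and 155.8), 1 µg replicate 2 (157.4 against 165.6) and, by a small margin, 8 µg replicate 1 (216.3 against 217.3). The first 5 of these also had the widest peaks of the 17 libraries, with medians of 467 to 511 bp on the chromosome 4 arm, whereas no other library exceeded 428 bp there. By runs of consecutive library codes, a possible batch, both 250 ng libraries were in run 1. In run 9 were 500 ng replicate 2 and 1 µg replicate 2, whereas 1 µg replicate 1 was in run 6. Run 5 held 500 ng replicate 1 together with 5 µg replicate 1 and 3 µg replicate 1, which were denser on the chromosome 2 arm. The parts of peak width and of code run in this pattern were not tested.

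The libraries denser on the chromosome 2 arm were the 100 ng library (42.9 against 40.3), both 3 µg libraries (145.9 and 177.7, against 139.6 and 176.5), both 5 µg libraries (146.3 and 176.2, against 142.8 and 175.5) and all 4 of the salt experiment. The other replicates at 8 and 1 µg were also on this side. Without the 500 and 250 ng libraries the mean log2 density ratio was 0.033 (n = 13) and that of covered share 0.045. These 4 were left out after their ratios had been seen to lie below 0, so the values are a description with no test.

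**Figure D2:**
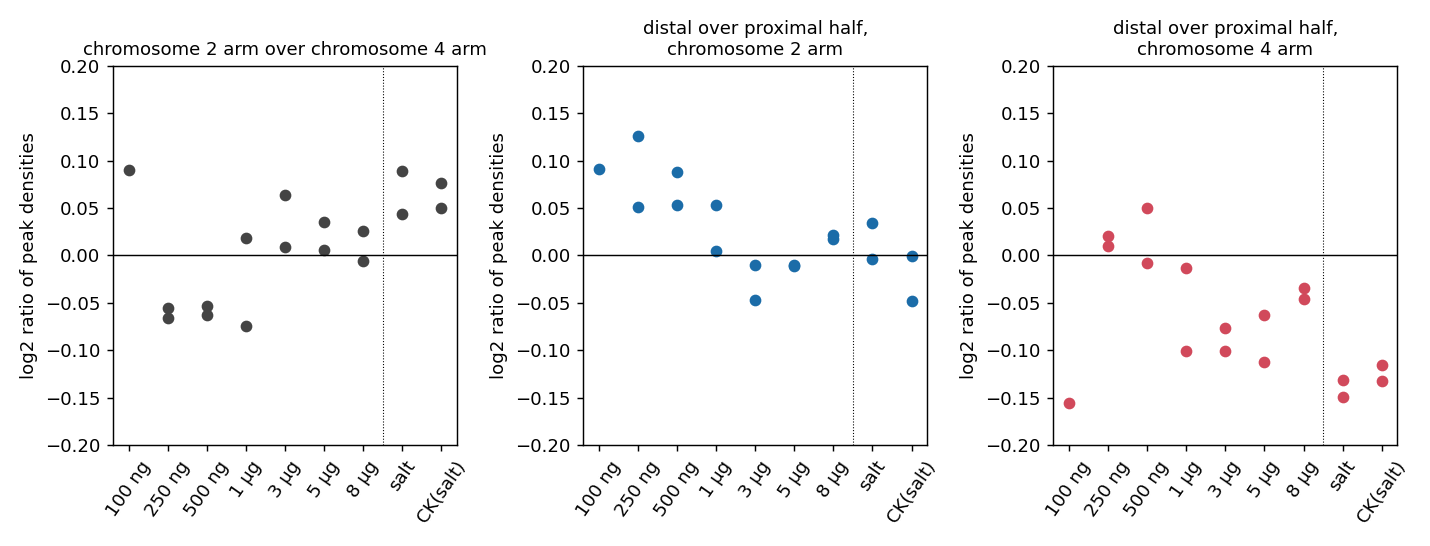
Log2 ratios of peak density in each library (points, y axis) by group (x axis). The left panel sets the chromosome 2 arm over the chromosome 4 arm, and the other panels set the distal over the proximal side of each arm. The 250 and 500 ng libraries lie below 0 in the left panel, and 14 of 17 libraries lie below 0 for the chromosome 4 arm in the right panel.

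Peak strength separated the arms more than peak number did. Each list was divided into quintiles of its own score, the deposited measure of significance, and densities were formed in each quintile as a description. In the strongest quintile the chromosome 2 arm was the denser in 15 of 17 libraries, with a mean log2 ratio of 0.12 ± 0.077 (SD, n = 17). In the weakest quintile it was the denser in 6 of 17, with -0.027 ± 0.080.

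Against the rest of the genome, the excess of the chromosome 4 arm was larger among weaker peaks. Its log2 ratio was 0.30 ± 0.12 in the weakest quintile and 0.0085 ± 0.11 in the strongest, where 10 of 17 libraries were above 0. For the chromosome 2 arm the values were 0.27 ± 0.071 and 0.12 ± 0.082, with 17 and 14 libraries above 0. The excess over the rest of the genome was thus smallest among the strongest peaks on both arms.

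Lists of equal length gave the same direction. Their peaks include the strongest quintile of every list, so they are not separate support for this contrast. Limited to the 14845 best-scored peaks of each library, the chromosome 2 arm had 41.6 to 47.1 peaks per Mb (median 44.3) and the chromosome 4 arm 37.8 to 48.2 (median 41.2). The mean log2 ratio was 0.091 ± 0.060 (adjusted sign-flip permutation p = 0.00024), and the chromosome 2 arm was denser in 15 of 17 libraries, the exceptions being the 250 ng pair. The last 10 Mb of chromosome 4 then lay below the other chromosomes in 17 of 17 libraries (mean log2 ratio -0.14, adjusted sign-flip permutation p = 8.0e-05). Neither result was past the threshold with the full lists. With lists of 1 length, more peaks in one place mean fewer in another, and the limit retains different shares of different lists.

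**Figure D3:**
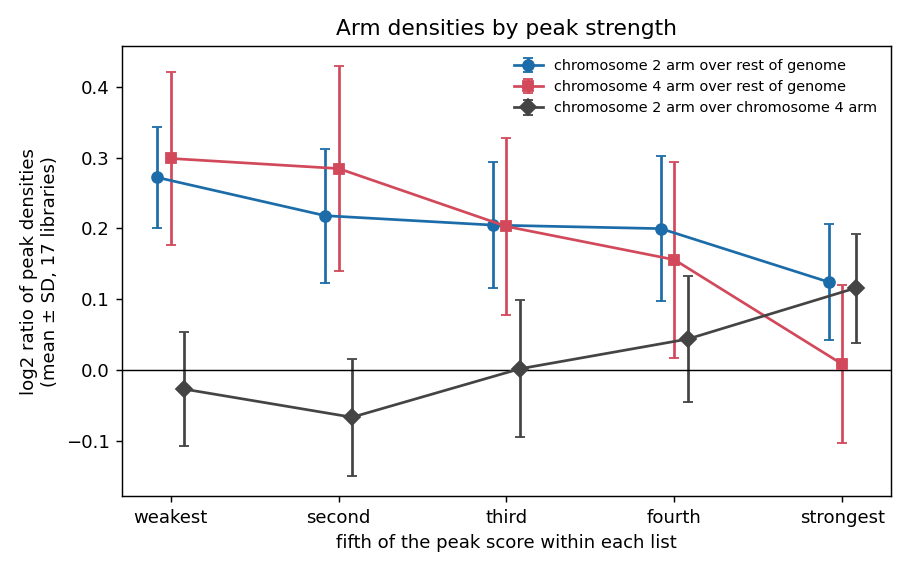
Mean log2 ratio of peak densities (y axis, ± SD over 17 libraries) by quintile of the peak score within each list, weakest to strongest (x axis). Circles set the chromosome 2 arm and squares the chromosome 4 arm over the rest of the genome, and diamonds the chromosome 2 arm over the chromosome 4 arm, which changes from -0.027 to 0.12.

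Merged regions were shared among libraries to a like degree on both arms. On the chromosome 2 arm 464 regions (9.99%) had a peak in all 17 libraries, and on the chromosome 4 arm 441 (9.09%), against 10.7% elsewhere. These were 27.4 and 25.2 regions per Mb, against 25.3 elsewhere. Regions found in 1 library only were 13.5% on either arm and 14.3% elsewhere. Width followed sharing closely, as the median was 255.5 and 255 bp for regions of 1 library but 1057 and 1088 bp for those of all 17, which in part reflects that merging more peaks makes a region longer.

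Across all regions the median width was 575 bp on the chromosome 2 arm, 571 bp on the chromosome 4 arm and 551 bp elsewhere. Peaks of single libraries did not show this order. Over libraries, their median widths had a median of 417, 414 and 423 bp in turn, and a mean of 420, 412 and 418 bp. Regions of at least 1.2 kb numbered 556 and 579. The merged regions covered 3.20 and 3.33 Mb, or 18.9% of the chromosome 2 arm and a nearly equal share of the chromosome 4 arm, against 15.7% of the rest of the genome.

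The evenness of spacing depended on list length. Neighbouring midpoints of merged regions lay a median of 2.61 kb apart on the chromosome 2 arm and 2.64 kb on the chromosome 4 arm, and the coefficient of variation was 1.08 and 0.979. In single libraries it was 0.922 to 1.04 on the chromosome 2 arm and 0.886 to 0.971 on the chromosome 4 arm, and was higher on the chromosome 2 arm in 15 of 17. With lists of equal length it was lower there in 14 of 17, with means of 0.926 and 0.957, so no order of the arms is given. Intervals of over 20 kb without a region numbered 20 and 23. The longest on the chromosome 2 arm was 117 kb (23272660 to 23389853), followed by 94.0 kb (34071362 to 34165376). On the chromosome 4 arm the longest was 86.5 kb (22651539 to 22738058), followed by 39.2 kb (32892506 to 32931705). Windows of 100 kb held 4 to 41 regions on the chromosome 2 arm and 11 to 40 on the chromosome 4 arm, with a median of 28 on each.

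Peak density varied little along the arms. In bins of 1 Mb, the densest on chromosome 2 was the shorter last one, from 35000001 on, with 159 ± 44.8 peaks per Mb (SD, n = 17), and the sparsest was its neighbour from 34000001 to 35000000, with 131 ± 38.7, which holds the 94.0 kb interval. On chromosome 4 the densest ran from 24000001 to 25000000 (160.5 ± 42.9) and the sparsest from 32000001 to 33000000 (128 ± 35.9), which holds the 39.2 kb interval. These SDs include the spread of list lengths. Relative to the arm mean of each library the bins averaged 0.887 to 1.11 and 0.878 to 1.11.

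The distal side of the chromosome 4 arm was the sparser. Divided at the midpoint of the arm, its distal over proximal log2 density ratio was -0.068 ± 0.064 (SD, n = 17, adjusted sign-flip p = 0.00156, lower in 14 of 17 libraries). The exceptions were both 250 ng libraries and 500 ng replicate 2. With replicate 1 left out the value was -0.062 (n = 9, adjusted exact permutation p = 0.0703). The chromosome 2 arm had 0.024 ± 0.048 (permutation p = 0.0549, higher distally in 10 of 17).

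Along the arms, the 500 and 250 ng libraries differed from those at 8, 5 and 3 µg. Relative to the arm, the bins nearest the chromosome end were lower at 500 and 250 ng (4 libraries) than at 8, 5 and 3 µg (6 libraries). The relative density was 0.90 against 1.14 on chromosome 2 and 0.87 against 1.08 on chromosome 4, or log2 ratios of -0.34 and -0.31. The innermost bins were lower as well (0.99 against 1.11 and 0.83 against 0.91), while others were higher, such as 32000001 to 33000000 on chromosome 2 (1.09 against 0.96). In all, 8 of 17 bins on chromosome 2 and 11 of 18 on chromosome 4 were relatively denser at the low amounts. These differences were not tested. The 100 ng library belongs to neither set. In the bins nearest the chromosome ends it had the highest relative density of all 17 libraries (1.47 and 1.58). The shift thus did not follow the amount throughout. The last chromosome 4 bin spans only 0.502 Mb.

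Positions on the arms were also matched. Counted from the chromosome ends, 16 pairs of bins of mean density gave r = 0.12 and rho = 0.20, and r = 0.098 in reversed order, as a description over bins that share libraries. In single libraries r ran from -0.14 to 0.53. Matched gene copies were not analysed here.

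**Figure D4:**
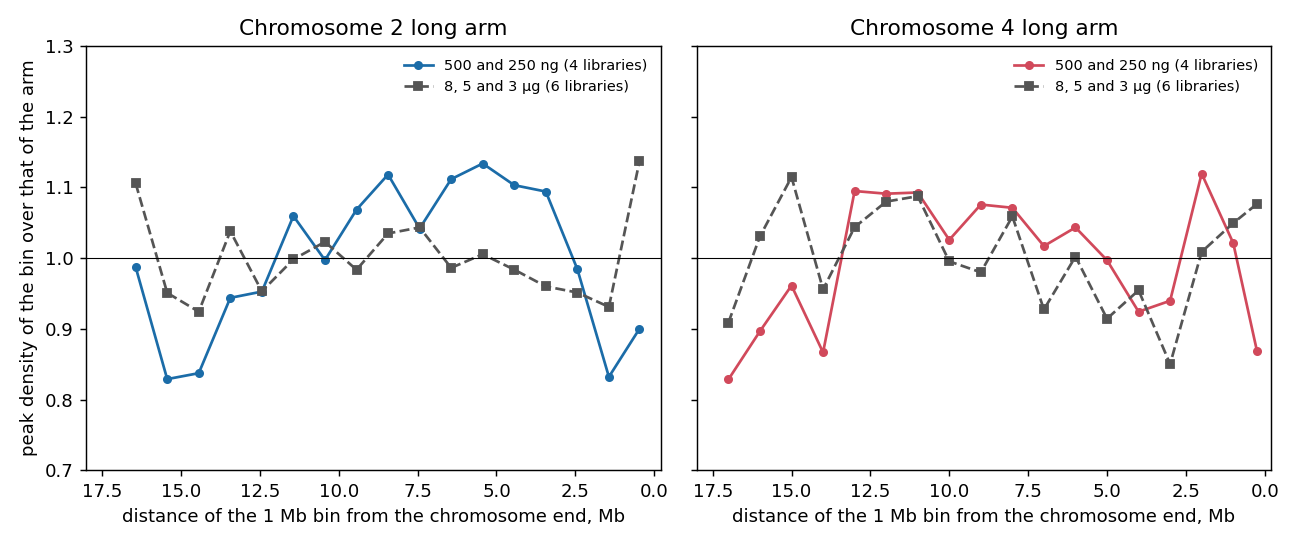
Peak density of 1 Mb bins relative to the whole arm (y axis) against distance from the chromosome end (x axis, Mb, the end at the right), for the chromosome 2 long arm (left) and the chromosome 4 long arm (right). Solid lines are means of the 4 libraries at 500 and 250 ng and dashed lines of the 6 at 8, 5 and 3 µg. The last bins lie at 0.90 and 0.87 at the low amounts, against 1.14 and 1.08 at the high amounts.

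Both arms gained peaks with input, as did the rest of the genome. The chromosome 2 arm had 42.9 peaks per Mb at 100 ng, 143 ± 3.84 at 250 ng, 147 ± 3.51 at 500 ng, 162 ± 6.93 at 1 µg, 162 ± 22.5 at 3 µg, 161 ± 21.2 at 5 µg and 208 ± 12.2 at 8 µg (SD, n = 2 each, and 1 at 100 ng). The chromosome 4 arm had 40.3, 150 ± 4.81, 153 ± 4.36, 165 ± 0.404, 158 ± 26.1, 159 ± 23.1 and 206 ± 15.4. Elsewhere in the genome the values were 39.6, 117 ± 2.70, 121 ± 0.604, 139 ± 10.6, 142 ± 19.2, 142 ± 17.6 and 180 ± 8.12. The means at 1, 3 and 5 µg differed by less than the SD at 3 or 5 µg on either arm.

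On log2 scales, density rose with the amount of input on both arms. On the chromosome 2 arm r was 0.70 (n = 13, permutation p = 0.0002, adjusted p = 0.0008 over 4 relations) and rho was 0.80 (adjusted p = 0.00664). On the chromosome 4 arm r was 0.65 (p = 0.00166, adjusted p = 0.00332) and rho was 0.63 (p = 0.0253, adjusted p = 0.0506). Without the 100 ng library and one of the 8 µg libraries, r was 0.67 in either case on the chromosome 2 arm (permutation p = 0.0247 and 0.0191) but 0.46 and 0.49 on the chromosome 4 arm (p = 0.152 and 0.115), so that the relation there rests on the extreme libraries. At constant background coverage r was -0.039 and -0.23 (permutation p = 0.898 and 0.442). Density followed background coverage itself with r = 0.97 and 0.95, so amount and depth cannot be told apart over these libraries. Within 3 runs of consecutive library codes (n = 8), r was 0.66 on the chromosome 2 arm (exact permutation p = 0.0417, adjusted p = 0.167) and 0.022 on the chromosome 4 arm (exact p = 0.986).

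For the ratio of the arms, no relation to input was detected over the 13 libraries, with r = 0.26 (permutation p = 0.382, adjusted p = 0.51) and rho = 0.28 (p = 0.351). The mean log2 ratio was 0.090 at 100 ng, -0.061 ± 0.0077 at 250 ng, -0.058 ± 0.0067 at 500 ng, -0.028 ± 0.065 at 1 µg, 0.036 ± 0.039 at 3 µg, 0.020 ± 0.020 at 5 µg and 0.0097 ± 0.023 at 8 µg. Without the 100 ng library, which has the fewest peaks, r was 0.76 (n = 12, permutation p = 0.0071, adjusted p = 0.0156), and without one of the 8 µg libraries as well it was 0.81 or 0.74 (p = 0.00567 and 0.013). At constant background coverage r was 0.71 (n = 13, p = 0.00816). Within code runs it was 0.64 (n = 8, exact permutation p = 0.444), where no relation was detected. The width ratio of the arms gave r = -0.092 (permutation p = 0.764) and rho = -0.13 (p = 0.677). It was -0.51 without the 100 ng library (p = 0.0906), -0.56 at constant background coverage (p = 0.048) and -0.58 within code runs (n = 8, exact permutation p = 0.361).

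The distal over proximal ratio of the chromosome 2 arm was higher at low input. This relation was examined after the data were seen. It gave r = -0.78 (n = 13, permutation p = 0.00223) and rho = -0.71 (p = 0.00888), and r = -0.74 without the 100 ng library (p = 0.00575). Within code runs r was -0.83 (n = 8, exact permutation p = 0.0556). The chromosome 4 arm gave r = -0.19 (p = 0.522) and rho = -0.27 (p = 0.371), and -0.66 without the 100 ng library (p = 0.0218).

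The 2 arms lost similar shares of their regions at low input. Of 2842 regions of the chromosome 2 arm and 2881 of the chromosome 4 arm with a peak in both 8 µg libraries, 24.6% and 23.6% were found at 100 ng, 58.9 ± 3.23% and 60.0 ± 3.39% at 250 ng, and 64.1 ± 2.79% and 64.7 ± 2.14% at 500 ng (SD, n = 2). The shares were 76.1 ± 9.63% and 76.4 ± 8.84% at 1 µg, 81.1 ± 8.29% and 80.7 ± 9.87% at 3 µg, and 81.8 ± 9.06% and 81.6 ± 9.96% at 5 µg. The difference between arms averaged -0.155 ± 0.929 percentage points over the 11 libraries. At 250 ng the rest of the genome had 56.5 ± 3.09%, and at 100 ng 25.8%.

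Regions that separated the amounts fully were few. With a peak in all 4 libraries of 500 and 250 ng and in none of the 6 at 8, 5 and 3 µg, the chromosome 2 arm had 137 of 4497 regions (3.05%) and the chromosome 4 arm 172 of 4727 (3.64%), against 2.54% of all regions in the genome. The opposite pattern was found in 153 (3.40%) and 163 (3.45%), against 3.95% in the genome. On both arms the share of the low amounts lay above that of the genome and the share of the high amounts below it. No test of these differences was made. Regions of the low amounts were wide, with medians of 660 and 612.5 bp, and those of the high amounts narrower, with 495 and 457 bp. The highest-scored region of the low amounts on chromosome 2 spanned 30270528 to 30271701, where folds ran from 5.93 to 8.18 over its 5 libraries. On chromosome 4 it spanned 24546790 to 24547557, with folds of 4.38 to 7.32 over 5 libraries.

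The strongest common region of the chromosome 2 arm lay from 31564527 to 31565669. Its fold, the ratio of summit to local background, ranged from 6.95 (250 ng replicate 2) to 25.6 (8 µg replicate 2) with a median of 17.8. It was 11.4 and 10.3 in the salt libraries, against 19.8 and 16.7 in the CK(salt) libraries. Since a fold depends on the list it comes from, such values describe the peak within each list. The next 4 by rank were 35823155 to 35823969, 23801930 to 23802872, 35574776 to 35575982 and 24923755 to 24924836, with median folds of 9.43, 12.8, 13.2 and 13.4. The second and the fourth of the 5 lay within 0.361 Mb of the chromosome end.

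On the chromosome 4 arm the strongest common region lay from 20707836 to 20709322. Its fold ranged from 5.01 (250 ng replicate 1) to 12.9 (3 µg replicate 2) with a median of 10.3. The second, 35499316 to 35501515, was 2200 bp long and lay at the very end of the peaks of this chromosome, with folds of 5.18 to 12.5. The following were 25928876 to 25930272, 26527524 to 26528776 and 22951109 to 22952300, with median folds of 12.3, 12.9 and 9.73. None of these 10 regions was hit by an RNaseH peak. Such hits were rare among all regions, with 1 of 4646 on the chromosome 2 arm, 4 of 4852 on the chromosome 4 arm and 107 of 79779 elsewhere.

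The widest regions were not among the strongest common regions named above, although the second on chromosome 4 also had a peak in all 17 libraries. On the chromosome 2 arm they spanned 23044021 to 23047333 (3313 bp, 16 libraries), 21976468 to 21979670 (3203 bp, 15 libraries) and 31331147 to 31334197 (3051 bp, 11 libraries), with median folds of 4.65, 4.89 and 3.53. On the chromosome 4 arm they spanned 35398824 to 35402428 (3605 bp, 16 libraries), 25338757 to 25342176 (3420 bp, all 17 libraries) and 31421904 to 31425322 (3419 bp, 11 libraries), with median folds of 6.19, 7.54 and 3.99. The last-named region of each arm had no peak in any salt or CK(salt) library.

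Few peaks of the RNaseH library fell on the arms. Of its 123 peaks, 1 lay on the chromosome 2 arm and 6 on the chromosome 4 arm, which together span 34.4 of 373 Mb. The chromosome 2 peak, 27673242 to 27673526, had a fold of 13.6 at a local background of 1.06 times the genome-wide level and overlapped peaks of 14 libraries. The 6 peaks formed a cluster of 8.89 kb (32883533 to 32892421) with folds of 1.93 to 3.47 at a local background of 10.0 to 18.9 times the genome-wide level, and overlapped peaks of 8 to 17 libraries. The 39.2 kb interval without any region began 84 bp after this cluster. A single RNaseH library allowed no test.

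Salt lists were shorter on both arms by a similar proportion. The chromosome 2 arm had 96.2 and 103.9 peaks per Mb in the salt libraries, against 156.6 and 120.7 in the CK(salt) libraries. The chromosome 4 arm had 90.5 and 100.8 in salt, against 151.3 and 114.5 in CK(salt). The rest of the genome had 87.6 and 95.7 in salt, against 137.1 and 107.9 in CK(salt). Salt and CK(salt) libraries thus did not overlap on either arm or elsewhere. The differences in mean log2 density were -0.46 on each arm (0.727-fold and 0.726-fold), with a two-sided exact permutation p of 0.333, the smallest that 2 against 2 libraries allow.

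The difference between arms in this response was 0.0030 on the log2 scale (exact permutation p = 1). Single libraries moved it between -0.020 and 0.026, so that the sign was not fixed. Background coverage was 6.74 and 3.88 in salt, against 8.60 and 4.30 in CK(salt), and its part in the densities was not tested. The 4 lists were also limited to their 32861 best-scored peaks each. The salt difference was then -0.027 on the chromosome 2 arm and -0.012 on the chromosome 4 arm, since list length is fixed.

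Peaks were narrower in salt on both arms. Median widths on the chromosome 2 arm were 345 and 310 bp in salt, against 427 and 394.5 bp in CK(salt), a mean difference of -83.2 bp. On the chromosome 4 arm they were 346 and 304 bp, against 418.5 and 396 bp, a difference of -82.2 bp (exact permutation p = 0.333 for each arm). In the rest of the genome median widths were 353 and 316 bp in salt, against 428 and 402 bp in CK(salt). With lists limited to 32861 peaks each, the differences on the arms were larger, at -132.5 and -133 bp. That limit is the whole list of salt replicate 1, whereas the CK(salt) lists held 51710 and 40592 peaks and lost their lowest-scored ones. Best-scored peaks were wider, with a median of 591 bp for CK(salt) replicate 1 on the chromosome 2 arm in the shorter equal lists. The larger differences thus cannot be told from an effect of the limit, and no stronger response to salt is read from them. Among regions found in all 4 libraries, 1143 on the chromosome 2 arm and 1104 on the chromosome 4 arm, the median ratio of width in salt over CK(salt) was 0.788 and 0.770. Of these, 695 (60.8%) and 713 (64.6%) were narrower in both salt libraries than in both CK(salt) libraries (61.5% in the genome), and 5 on each arm were wider (0.957% in the genome). The shares of narrower regions were near that of the genome. Those of wider regions (0.437% and 0.453%) were below it, on counts of 5 each.

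Few regions were gained and more were lost on both arms. A gained region had a peak in both salt libraries and in no CK(salt) library, and a lost one the reverse. The chromosome 2 arm gained 2 of 2966 regions (0.0674%) and the chromosome 4 arm 14 of 3031 (0.462%), against 0.275% in the genome. They lost 246 (8.29%) and 267 (8.81%), against 8.05% in the genome. As a share of the regions of both CK(salt) libraries, 13.3% and 14.9% were lost, against 12.7% in the rest of the genome. Losses on the arms were thus near the background. The lost counts moved with the settings. They were 76 and 98 with lists of 32861 peaks. With 1 of the 4 libraries left out they were 376 to 766 and 404 to 850.

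The gained counts were small and moved with the settings too, though the chromosome 4 arm had the more in every setting run. At a −log10 q of at least 5 it had 8 against 0 on the chromosome 2 arm. With lists of 32861 peaks it had 53 against 34, and at 50% reciprocal overlap 89 against 75. With CK(salt) replicate 2 left out it had 19 against 7, and with salt replicate 1 left out 147 against 101. These settings reuse the same 4 libraries, and the genome share of 0.275% belongs to the counts of 2 and 14 only. No test of this difference was made.

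Among gained regions the best score belonged to 33750040 to 33750270 of chromosome 4. Its salt folds were 7.30 and 8.88, and 5 of the 13 input lists held it. The second, 24962083 to 24962304, had folds of 6.93 and 7.08 and a peak in 3 input lists. The next 3 were 24709527 to 24710019, 35090868 to 35091129 and 27372986 to 27373228, with lower ranks and a peak in 12, 6 and 11 input lists. The pair gained on chromosome 2 were 32400553 to 32400787 (folds of 3.75 and 3.24, 12 input lists) and 30811090 to 30811487 (2.74 and 4.68, 1 input list). Every region named here therefore also occurred without salt in at least 1 input library.

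Lost regions were ranked likewise, by their CK(salt) scores. On chromosome 4 the first was 34146259 to 34146636 (CK(salt) folds of 7.56 and 7.83), followed by 33790256 to 33790557 (4.96 and 5.55), 28368997 to 28369387 (6.63 and 6.48), 24640394 to 24641056 (5.94 and 6.23) and 28608571 to 28608889 (6.25 and 5.69). On chromosome 2 the first was 34926628 to 34926928 (5.01 and 5.03), followed by 28009139 to 28009514 (5.85 and 6.60), 19609174 to 19609754 (4.64 and 4.80), 26273252 to 26273564 (5.01 and 4.93) and 34967823 to 34968182 (5.88 and 7.02). Each of these 10 was held by 5 to 12 input lists.

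**Figure D5:**
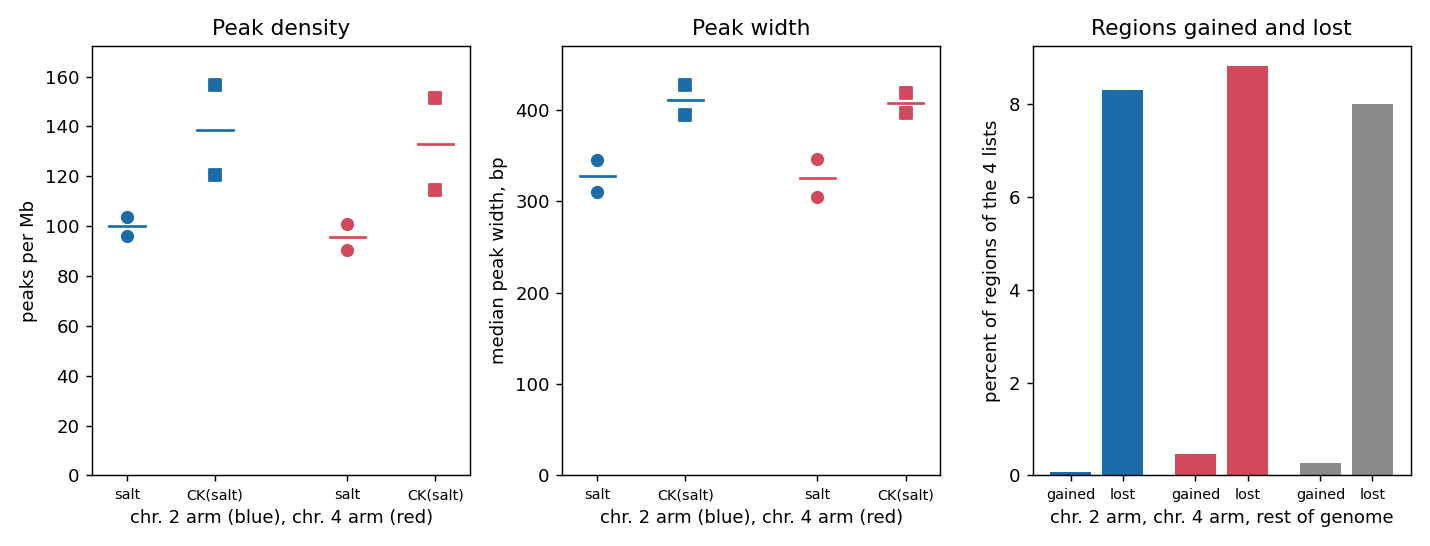
Peak density (left, peaks per Mb) and median peak width (middle, bp) in salt (circles) and CK(salt) (squares) libraries on the chromosome 2 arm (blue) and the chromosome 4 arm (red), with group means as bars, and the percentage of regions gained and lost (right) on the chromosome 2 arm, the chromosome 4 arm and the rest of the genome. Salt libraries lie below CK(salt) libraries on both arms, and the lost shares are 8.29% and 8.81%.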

How the data were processed

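ISRH-seq peak lists of 18 rice seedling libraries were used, 1 list per library as the authors deposited it. Per the submitters' processing notes, the authors used Bowtie2 for alignment and MACS2 2.1.4 for peaks. Build, control library and handling of duplicates are not given in the sources used here. In the deposited lists the score equals the −log10 q-value times 10, truncated. Fold is the authors' ratio of summit pileup to local background. P-value and q-value columns were deposited as −log10. No read counts are held, so background coverage was solved from fold and p-value (at least 99.6% of summits) and its most frequent value taken as depth.

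A peak belongs to an arm by its midpoint. Density is peaks per Mb, spacing the distance between neighbouring midpoints. Arm ratios are the chromosome 2 arm over the chromosome 4 arm, tested over libraries by two-sided sign-flip permutation with 100000 resamples (Python 3.11.15, scipy 1.17.1), and adjusted by Benjamini-Hochberg over 4 arm measures, 4 comparisons with other parts of the genome and 2 distal ratios. Relations to input were tested by permutation of Pearson's r and Spearman's rho. Salt was tested by exact permutation. The threshold was an adjusted p of 0.05. Library codes in peak names form 9 runs, used as a possible batch. The density ratio, the counts of gained and lost regions and the background solution were checked on simulated data.

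Named regions are, per arm, the 5 common to 17 libraries with the highest median score percentile, the 3 widest, the 2 longest intervals without a region, the densest and sparsest 1 Mb bin, the 5 best-scored gained and lost regions, RNaseH peaks and the regions at the boundary. The best-scored region of each kind that separated the amounts was added. Members, rules and lists were chosen with earlier results of these data known. Alternatives were a stricter q, lists of equal length, other arm starts, other overlaps, libraries left out, group means, code runs and a replicate block. Lists of equal length held 14845 peaks, or 32861 in the comparisons of salt with CK(salt). Same-numbered salt and CK(salt) libraries shared a code run (run 2 for replicate 1, run 3 for replicate 2). Over 344 windows of 100 kb their deviations gave r = 0.045, which does not settle whether they are pairs. Numbers were not taken as pairs in the main tests, and the replicate block was an alternative. No pair of lists was identical.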

Additional observations from a re-analysis of the deposited data

Results flagged for a closer look

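Group means of the arms' log2 density ratio lay on opposite sides of 0 with every library of the group on its side. The difference was -0.097 for 250 ng minus 3 µg, -0.094 for 500 ng minus 3 µg, -0.081 for 250 ng minus 5 µg and -0.078 for 500 ng minus 5 µg. At 250 and 500 ng the chromosome 4 arm was the denser, and at 3 and 5 µg the chromosome 2 arm.

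The log2 distal over proximal density of the chromosome 2 arm differed in the same manner. It was 0.12 for 250 ng minus 3 µg, 0.099 for 500 ng minus 3 µg, 0.058 for 1 µg minus 3 µg, 0.0997 for 250 ng minus 5 µg, 0.082 for 500 ng minus 5 µg and 0.040 for 1 µg minus 5 µg. It was -0.048 for 3 µg minus 8 µg and -0.030 for 5 µg minus 8 µg. On the chromosome 4 arm the distal ratio was above 0 in both 250 ng libraries and below 0 in both libraries at 1, 3, 5 and 8 µg, with differences of 0.072, 0.104, 0.102 and 0.055. None of these 16 differences between groups of 2 libraries was tested, and they share libraries with one another.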

How the results depend on the processing

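The densities against the rest of the genome (0.16 to 0.21 on the log2 scale for the chromosome 2 arm, and 0.069 with equal lists to 0.20 for the chromosome 4 arm) and the chromosome 2 outer density (0.044 to 0.071) kept their direction and call in every alternative run. With equally long lists the log2 arm ratios were 0.091 for density, 0.084 for covered share (both adjusted permutation p = 0.00024), 0.015 for width and -0.085 for spacing (adjusted permutation p = 0.00117), the chromosome 4 outer density was -0.14, and the relations to input were 0.098 (chromosome 2 arm), -0.49 (chromosome 4 arm), 0.68 (density ratio) and -0.65 (width ratio), both ratios with adjusted permutation p = 0.0362. With the salt and CK(salt) lists limited to 32861 peaks each, the salt difference between arms was -0.015. On the chromosome 2 and 4 arms 34 and 53 regions were then gained and 76 and 98 lost. At a −log10 q of at least 5 the chromosome 4 outer density was -0.012, with 0 and 8 regions gained. With arms starting 1 Mb further out, the density ratio was -0.0012, the chromosome 2 distal ratio 0.035 (adjusted sign-flip permutation p = 0.00162) and the width relation 0.13. Without the 100 ng library the chromosome 4 relation was 0.58 (adjusted permutation p = 0.0645) and that of the density ratio 0.76. Without the 500 and 250 ng libraries the density ratio was 0.033, the covered share ratio 0.045 and the chromosome 4 outer density -0.038. Within code runs the relations of the arms were 0.66 and 0.022. At 50% reciprocal overlap 75 and 89 regions were gained, and 371 lost on the chromosome 2 arm.

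With either replicate number left out, the width ratio was 0.020 to 0.024, the chromosome 4 outer density -0.014 to 0.020, its distal ratio -0.084 to -0.062, the relations of density to input 0.75 to 0.78 (chromosome 2 arm) and 0.71 to 0.74 (chromosome 4 arm; adjusted exact permutation p = 0.0563 and 0.0619 without replicate 2), and that of the width ratio 0.031 to 0.24. With 1 salt or CK(salt) library left out, the difference between arms was -0.020 to 0.026, with 7 to 101 and 19 to 147 regions gained and 376 to 766 and 404 to 850 lost, as fewer lists then decide a call. The cause was not tested for the other changes. With replicate number as a block, the salt density differences were -0.46 on both arms (exact p = 0.5, the smallest that 2 pairs allow), and no call changed. Peak lists give no reads, so weak peaks missed at low depth cannot be told from absent ones.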
